A study of Rattus norvegicus with 16 samples.

Results

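The genes described here make, store, break down or receive the monoamine transmitters dopamine, noradrenaline, serotonin and histamine. They are Th, Ddc, Slc18a2, Hdc, Maoa, Maob, Drd2, Htr2c and Htr1a, 9 genes chosen by symbol, of the 15892 symbols present in both expression tables. All 9 were found in both tables, each at a single locus whose status flag was OK in every library. In hippocampus Th, Slc18a2, Hdc and Drd2 had a mean below 1 FPKM (fragments per kilobase of transcript, scaled to the mapped fragments of the library) over the libraries, and their differences there were not tested. In hypothalamus all 9 passed that minimum.

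The study sequenced RNA of 2 brain regions, hippocampus and hypothalamus, from male rats of the Sprague Dawley strain that were either untreated (control) or fed fructose for 6 weeks. No genetic change, age or dose of fructose is named in the labels, and no other agent is listed for either group. The labels list 4 samples in each of the 4 groups. The hypothalamus table holds 4 control and 3 fructose libraries, and hypothalamus fructose replicate 4 was not analysed here. The labels do not say whether samples came from separate rats, so p-values measure only the spread between these samples, which may be technical.

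Monoamine neurons sit in a few small nuclei, mostly of the midbrain, hindbrain and hypothalamus, and send long axons through the forebrain. Their enzymes and vesicle transporter are transcribed in the cell bodies, so a projection field such as the hippocampus receives the axons with little of that mRNA, whereas the hypothalamus holds dopamine neurons and, in the tuberomammillary nucleus, the histamine neurons of the brain. Receptors and the breakdown enzymes are made by many other cells of both regions.

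The FPKM values summed to between 353703 and 402099 per hippocampus library and to between 435105 and 492778 per hypothalamus library. The replicate 1 libraries stood apart in both regions. The correlation of log2(FPKM + 1) across loci between control and fructose replicate 1 was 0.985 in hippocampus and 0.980 in hypothalamus, while replicate 1 libraries correlated with the others at 0.840 to 0.896 and at 0.880 to 0.909. Among the other libraries it was 0.934 to 0.979 and 0.956 to 0.979. The sum of 13 hypothalamic marker genes was 3402 to 8950 FPKM in the hypothalamus libraries and 6.08 to 31.6 FPKM in the hippocampus libraries. Of 12 hippocampal marker genes, 10 were found in hippocampus, with a sum of 229 to 445 FPKM. In hypothalamus 11 were found, with a sum of 64.2 to 98.9 FPKM. Each list thus had its higher sums in the libraries of its own region. Pituitary RNA was also present in the hypothalamus libraries in varying amount. The 11 pituitary markers summed to 65.8 to 878 FPKM there and to 1.09 to 3.73 FPKM in hippocampus. In control hypothalamus most of it was Cga (mean 381 FPKM). The part of pituitary RNA in the members' values was not tested. In such bulk tissue, fewer cells of a type and less RNA per cell cannot be told apart.

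The promoters of all members but Htr1a (8 genes, 10 windows because Ddc has several) were matched in RefSeq (build GRCr8), as the 250 bases before the annotated start. They are shown for Th, Slc18a2 and Hdc, which were the genes with the largest difference between the regions. Each was at its highest in hypothalamus control replicate 2, with Hdc nearly as high in fructose replicate 2. Capitals mark TGACGTCA, the cyclic AMP response element, which reads the same on both strands.
Th, chr1:207508219-207508468, minus strand: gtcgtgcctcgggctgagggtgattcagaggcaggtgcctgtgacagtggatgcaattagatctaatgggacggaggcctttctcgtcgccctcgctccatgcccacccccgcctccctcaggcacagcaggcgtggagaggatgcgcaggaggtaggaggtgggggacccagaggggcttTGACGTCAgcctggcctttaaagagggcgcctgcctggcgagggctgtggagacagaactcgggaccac
Slc18a2, chr1:268399771-268400020, plus strand: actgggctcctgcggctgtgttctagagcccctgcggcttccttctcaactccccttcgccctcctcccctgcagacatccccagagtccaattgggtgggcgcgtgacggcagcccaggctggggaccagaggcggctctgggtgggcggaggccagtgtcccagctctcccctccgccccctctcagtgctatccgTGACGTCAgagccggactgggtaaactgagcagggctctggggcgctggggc
Hdc, chr3:134318705-134318954, minus strand: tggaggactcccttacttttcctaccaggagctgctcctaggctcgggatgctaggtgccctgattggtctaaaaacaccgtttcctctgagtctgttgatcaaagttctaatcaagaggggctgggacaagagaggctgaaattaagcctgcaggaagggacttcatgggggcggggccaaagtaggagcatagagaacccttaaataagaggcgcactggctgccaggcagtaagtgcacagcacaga
The element lies at positions -69 to -62 of the Th promoter and at positions -52 to -45 of the Slc18a2 promoter, counted from the annotated start. The Hdc window shown does not contain these letters, and neither do the windows matched for the other members. Of 33469 promoter windows of the same length, 531 (1.59%) hold it. AAAGGTCA, the element read by Nr4a2 and its relatives, was found on the minus strand of 1 Ddc window and on either strand of 1.24% of all windows. GGGCGG, the GC box, was found on either strand in Slc18a2, Hdc, Drd2, Maoa and Maob and in 30.5% of all windows. A match is a description of the sequence and not a measured binding site.

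Fructose was compared with control within each region, the question the design poses. No member that was tested passed in either region (limma's moderated test on log2(FPKM + 1), Benjamini-Hochberg adjustment over all loci tested, threshold 0.05). In hippocampus 0 of the 5 members tested passed, where 0% of the 11385 loci tested did. In hypothalamus 0 of 9 passed, where 0.0087% of the 11498 loci tested (1 locus) did. With the replicate number as a block 2 hypothalamus loci passed, and again no member. As hypothalamus has no fructose replicate 4 to pair it with, control replicate 4 adds nothing to the change in that fit. At an unadjusted p under 0.05 the members' count was also 0 in both regions, against 0.808% of loci in hippocampus and 3.14% in hypothalamus. In every member the fructose libraries overlapped the control libraries, while the groups did not overlap in either direction for 0.668% of the hippocampus loci and 3.33% of the hypothalamus loci. The adjusted p was 1 for every member tested, and the values below give the level in each library, in order of replicate number, so that the size of an undetected difference can be judged from its standard error (SE).

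**Figure D1:**
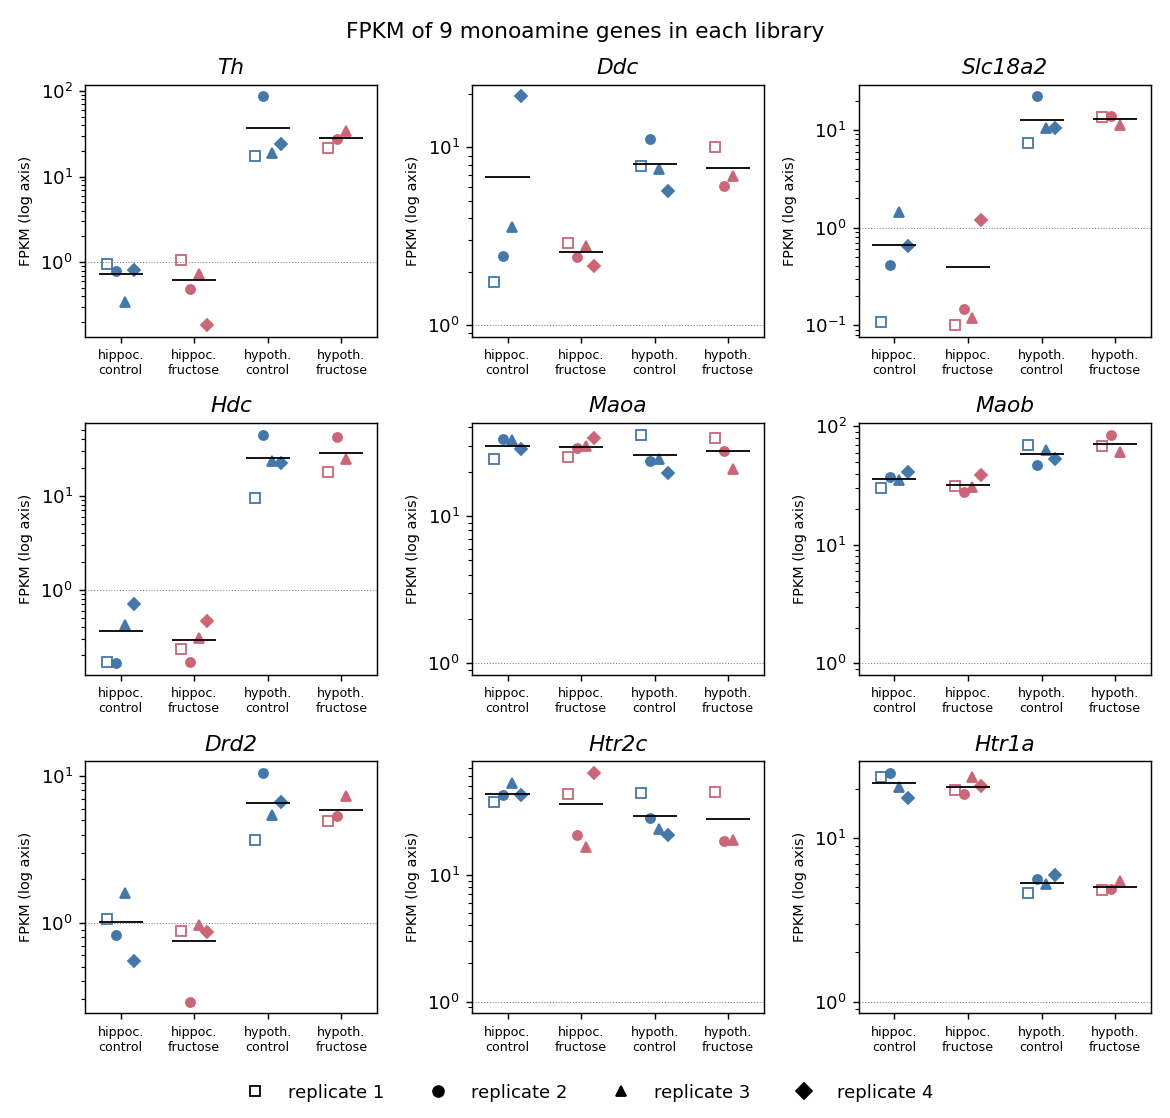
FPKM of each monoamine gene (log axis) in every library, by region and group, with a symbol for each replicate number, open squares for replicate 1, and a horizontal bar at the group mean. Ddc in hippocampus control replicate 4 (19.4 FPKM) and Th in hypothalamus control replicate 2 (86.0 FPKM) lie far above the other libraries of their group, and fructose and control libraries overlap in every panel.

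Th encodes tyrosine hydroxylase, the rate-limiting enzyme of dopamine and noradrenaline synthesis. In hypothalamus it was at 17.3, 86.0, 18.7 and 24.2 FPKM in the control libraries and at 21.5, 27.7 and 34.2 FPKM in the fructose libraries. Control replicate 2 was the highest library and the other 3 control libraries held a mean of 20.1 ± 3.66 FPKM (SD, n = 3), so that this library was 4.28 times their mean. The fitted change with fructose was -0.07 (SE 0.53) on the log2(FPKM + 1) scale, and without control replicate 2 it was 0.44, which did not pass either. In hippocampus Th was low, at 0.943, 0.789, 0.345 and 0.814 FPKM in control and 1.07, 0.492, 0.724 and 0.185 FPKM in fructose libraries, with the highest and the lowest value both in the fructose group.

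Ddc encodes aromatic L-amino acid decarboxylase, which makes dopamine from L-DOPA and serotonin from 5-hydroxytryptophan. In hippocampus it was at 1.75, 2.46, 3.56 and 19.4 FPKM in the control libraries and at 2.88, 2.42, 2.80 and 2.15 FPKM in the fructose libraries. The fructose libraries thus lay within the range of the first 3 control libraries, and control replicate 4 was 7.49 times the mean of those 3 (2.59 ± 0.911 FPKM, SD, n = 3). The fitted change was -0.62 (SE 0.56) with that library and 0.02 without it. In hypothalamus Ddc was at 7.84, 11.1, 7.59 and 5.68 FPKM in control and at 10.1, 6.10 and 6.86 FPKM in fructose libraries. The highest and the lowest library were both controls, and the change was -0.05 (SE 0.24).

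Hdc encodes histidine decarboxylase, the enzyme that makes histamine in neurons and in mast cells. In hypothalamus it was at 9.39, 44.9, 23.4 and 22.6 FPKM in control and at 17.8, 42.5 and 24.8 FPKM in fructose libraries. Each group had its highest value in replicate 2 and its lowest in replicate 1. The change with fructose was 0.27 (SE 0.50), or 0.29 (SE 0.19) with the replicate number as a block. Without control replicate 4 it was also 0.29. In hippocampus no library exceeded 0.699 FPKM, and the lowest value was 0.165 FPKM. Of 11 mast cell markers 9 had a mean below 1 FPKM in each region, Gata1 was at 0 in every library of both, and the list's sum was 34.1 to 57.7 FPKM in control and 32.7 to 36.3 FPKM in fructose hypothalamus, most of it from Kit and Srgn, which other cells also express.

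Slc18a2 encodes the vesicular monoamine transporter VMAT2, which loads dopamine, noradrenaline, serotonin and histamine into vesicles. In hypothalamus it was at 7.28, 22.1, 10.6 and 10.4 FPKM in control and at 13.5, 13.9 and 11.3 FPKM in fructose libraries. The control libraries spanned the fructose libraries on both sides, and the change was 0.14 (SE 0.32). In hippocampus it was at 0.107, 0.418, 1.45 and 0.640 FPKM in control and at 0.10, 0.146, 0.118 and 1.20 FPKM in fructose libraries. A single library of each group exceeded 1 FPKM there, control replicate 3 and fructose replicate 4.

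Maoa and Maob encode the monoamine oxidases of the outer mitochondrial membrane, MAO-A, which prefers serotonin and noradrenaline, and MAO-B, which in brain is found mainly in astrocytes and in serotonin and histamine neurons. Maoa was the steadiest member in hippocampus. It was at 24.2, 33.0, 32.9 and 28.3 FPKM in control and at 25.1, 29.1, 29.6 and 34.0 FPKM in fructose hippocampus, a ratio of 1.40 between the highest and the lowest library. The change was -0.0045 (SE 0.14). In hypothalamus Maoa was at 35.6, 23.4, 24.4 and 19.5 FPKM in control and at 33.7, 27.6 and 20.9 FPKM in fructose libraries. Replicate 1 was highest in both groups, and the change was 0.10 (SE 0.24), or -0.02 with the replicate number as a block.

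Maob was at 30.1, 37.4, 35.5 and 40.9 FPKM in control and at 31.3, 28.1, 30.8 and 38.9 FPKM in fructose hippocampus, with a change of -0.15 (SE 0.14). Every fructose library but replicate 2 lay within the control range. The change was -0.24 without fructose replicate 4 and -0.23 without control replicate 1. It was -0.09 when either control replicate 4 or fructose replicate 2 was left out, and none of these fits passed. In hypothalamus it was at 70.0, 47.3, 62.7 and 52.7 FPKM in control and at 68.6, 85.2 and 61.3 FPKM in fructose libraries. Fructose replicate 2 was the highest library and control replicate 2 the lowest, and the change of 0.30 (SE 0.18) had the smallest p of the members in hypothalamus, which did not pass (adjusted p = 1, limma). Without fructose replicate 2 it was 0.17. The sum of 8 astrocyte markers was also highest in fructose replicate 2 (4173 FPKM), against 2860 to 3417 FPKM in the control libraries and 2800 to 3681 FPKM in the other fructose libraries. Of 9 ependymal and tanycyte markers tested there, 7 had a positive change (median 0.55, against 0.155 for the astrocyte markers). The groups did not overlap for 3 of these 9 and for 1 of the 8 astrocyte markers (3.33% of all loci there). The ependymal and tanycyte sum was 324 to 546 FPKM in control and 283 to 428 FPKM in fructose libraries, with its lowest value in fructose replicate 2. In the control libraries most of this sum came from 1 gene, Vim (mean 344 FPKM), so the sum says little about the other markers. The part of either list in the Maob values was not tested.

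Drd2 encodes the dopamine D2 receptor, which acts both as an autoreceptor on dopamine neurons and on their target cells. In hypothalamus it was at 3.69, 10.5, 5.42 and 6.70 FPKM in control and at 4.95, 5.33 and 7.32 FPKM in fructose libraries. Control replicate 2 was the highest library and control replicate 1 the lowest, and the change was -0.08 (SE 0.30), or 0.15 without control replicate 2. In hippocampus it was at 1.07, 0.832, 1.61 and 0.553 FPKM in control and at 0.879, 0.290, 0.961 and 0.860 FPKM in fructose libraries. The groups overlapped around 1 FPKM.

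Htr2c encodes the serotonin 2C receptor, which is strongly expressed in the choroid plexus and also in neurons of both regions. In hippocampus it was at 37.2, 42.2, 52.9 and 42.7 FPKM in control and at 43.3, 20.7, 16.7 and 63.7 FPKM in fructose libraries. The 4 control libraries lay close together, and the fructose group held the 2 lowest libraries and the highest. The mean was 43.8 ± 6.56 FPKM (SD, n = 4) in control and 36.1 ± 21.8 FPKM (SD, n = 4) in fructose libraries, with a change of -0.46 (SE 0.39). Without fructose replicate 4 it was -0.79 and without fructose replicate 3 it was -0.16 (adjusted p = 1 in both, limma).

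Choroid plexus RNA was present in the hippocampus libraries in varying amount. The sum of the 11 choroid plexus markers in that table was 7647, 3039, 1204 and 2608 FPKM in control and 5915, 1617, 1514 and 4505 FPKM in fructose libraries, nearly all of it from Ttr, with Otx2 at 0 in all libraries. Within the fructose group the 2 libraries low in Htr2c also had the 2 lowest marker sums. Within the control group the library with the lowest sum had the highest Htr2c. The part of choroid plexus RNA in the Htr2c values was not tested. In hypothalamus 12 such markers summed to 42.4 to 126 FPKM. Htr2c was at 44.5, 28.0, 22.9 and 20.7 FPKM in control and at 44.7, 18.4 and 18.8 FPKM in fructose libraries. Replicate 1 was highest in both groups, and the change was -0.15 (SE 0.37), or 0.08 without control replicate 1. With the replicate number as a block it was -0.28 (SE 0.14, adjusted p = 0.831, limma). Without control replicate 4 it was also -0.28.

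Htr1a encodes the serotonin 1A receptor, an inhibitory receptor of hippocampal pyramidal cells and an autoreceptor of serotonin neurons. It was at 23.7, 25.1, 20.7 and 17.6 FPKM in control and at 19.6, 18.6, 23.6 and 21.0 FPKM in fructose hippocampus, with a change of -0.06 (SE 0.14). All fructose libraries lay inside the control range. In hypothalamus it was at 4.64, 5.60, 5.21 and 5.99 FPKM in control and at 4.86, 4.88 and 5.46 FPKM in fructose libraries, again inside the control range, with a change of -0.07 (SE 0.13). Its ratio of 1.29 between the highest and lowest hypothalamus library was the smallest of the members in either region.

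**Figure D2:**
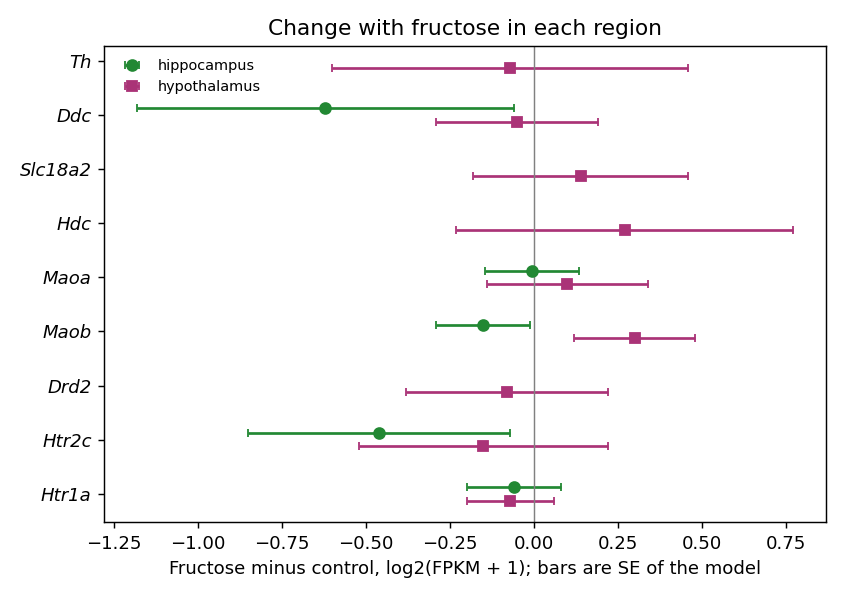
Change with fructose in each region for the members tested, as the difference of mean log2(FPKM + 1), with bars of 1 SE of the limma model (circles for hippocampus, squares for hypothalamus). Ddc in hippocampus (-0.62) lies farthest from 0 with the widest bar, and the members below a mean of 1 FPKM in hippocampus have no point there.

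The change with fructose was also compared between the regions, as an interaction over the 9931 symbols tested in both tables. None of these symbols (0%) passed, and neither did any of the 5 members that could be tested (adjusted p = 1 for each, limma). The number of symbols with an unadjusted p under 0.05 was 229, and none was a member. The hypothalamus change minus the hippocampus change was 0.45 (SE 0.23) for Maob, which fitted higher with fructose in hypothalamus and lower in hippocampus. With 1 library left out it ranged from 0.32 to 0.56, and it was 0.64 without the 4 libraries numbered 1. In that fit and in 4 of those with 1 library left out its unadjusted p was under 0.05, with an adjusted p of 1 in each (limma). It was 0.56 (SE 0.66) for Ddc, and -0.07 once hippocampus control replicate 4 was left out. For Htr2c it was 0.31 (SE 0.56), for Maoa 0.10 (SE 0.27) and for Htr1a -0.0019 (SE 0.19).

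The regions themselves were compared in the control libraries. As the regions stand in separate tables that may have been normalized separately, levels are set side by side and no test was made. Th, Slc18a2 and Hdc were below 1 FPKM on average in control hippocampus and above 12 FPKM in control hypothalamus. Hdc had a control mean of 0.364 ± 0.254 FPKM (SD, n = 4) in hippocampus and 25.1 ± 14.7 FPKM (SD, n = 4) in hypothalamus, a ratio of 69.0. Th had 0.723 ± 0.261 FPKM and 36.6 ± 33.1 FPKM (SD, n = 4 each), a ratio of 50.6. Slc18a2 had 0.655 ± 0.575 FPKM and 12.6 ± 6.51 FPKM (SD, n = 4 each), a ratio of 19.2. No hypothalamus control library overlapped a hippocampus control library for any of these genes. On the log2(FPKM + 1) scale, which understates the change of low genes, the differences were 4.09 for Hdc, 4.13 for Th and 2.99 for Slc18a2, and without hypothalamus control replicate 2 that of Th was 3.61. With each control library left out in turn, the ratio of means ranged from 50.8 to 99.7 for Hdc, from 27.8 to 59.5 for Th and from 14.4 to 32.4 for Slc18a2. The lowest ratio was without hypothalamus control replicate 2 for each of these genes. The highest Slc18a2 ratio was without hippocampus control replicate 3, its 1 control library above 1 FPKM.

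The receptors went in opposite directions. Drd2 had a control mean of 1.01 ± 0.448 FPKM in hippocampus and 6.58 ± 2.91 FPKM in hypothalamus (SD, n = 4 each), a log2 difference of 1.86. Htr1a had 21.8 ± 3.34 FPKM in hippocampus and 5.36 ± 0.576 FPKM in hypothalamus (SD, n = 4 each), a log2 difference of -1.83 and a ratio of 4.06 in favour of hippocampus. The control libraries overlapped for neither receptor. Htr2c had 43.8 FPKM in hippocampus and 29.0 ± 10.8 FPKM (SD, n = 4) in hypothalamus, a log2 difference of -0.63, with overlap through the high replicate 1 library of hypothalamus.

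The breakdown enzymes and Ddc differed by less than the synthesis and transport genes above. Maoa had 29.6 ± 4.21 FPKM in hippocampus and 25.7 ± 6.92 FPKM in hypothalamus (SD, n = 4 each), with overlap and a log2 difference of -0.22. Maob had 36.0 ± 4.53 FPKM and 58.2 ± 10.2 FPKM (SD, n = 4 each), with no overlap and a log2 difference of 0.67. Ddc had 6.79 ± 8.43 FPKM and 8.05 ± 2.24 FPKM (SD, n = 4 each). Its libraries overlapped through hippocampus control replicate 4, and without that library the log2 difference went from 0.70 to 1.33, the ratio of means (hypothalamus to hippocampus) from 1.19 to 3.11, and the overlap was gone.

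In all, 5 of the 9 members had every hypothalamus control library above every hippocampus control library, against 34% of the 10871 symbols compared, and 1 of 9 the reverse, against 17.6% of those symbols. The median log2 difference of all these symbols was 0.20 in favour of hypothalamus, and -0.05 after each library was rescaled to the same total. Rescaled, the differences were 4.67 for Hdc, 4.47 for Th, 3.42 for Slc18a2, 2.01 for Drd2, 0.54 for Ddc, 0.39 for Maob, -0.51 for Maoa, -0.93 for Htr2c and -2.21 for Htr1a. No member changed its direction, but Maob then overlapped between the regions and Htr2c no longer did.

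**Figure D3:**
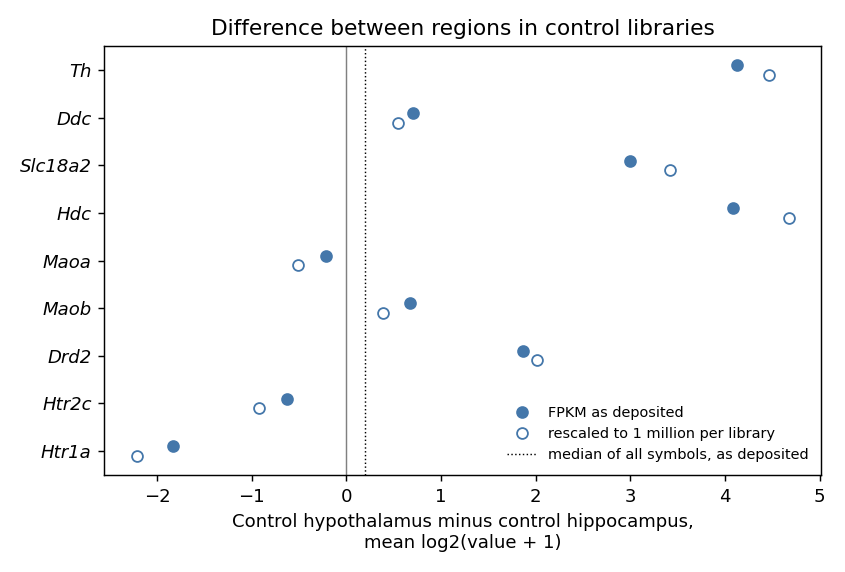
Difference of mean log2(value + 1) between control hypothalamus and control hippocampus for each member, with filled circles for FPKM as deposited, open circles after rescaling each library to the same total, and a dotted line at the median of all symbols (0.20). Th, Hdc and Slc18a2 lie far to the right and Htr1a to the left, under both scalings.

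Within a library FPKM values can be ordered between genes, since they are per length. In control hippocampus the order of mean FPKM was Htr2c, Maob, Maoa, Htr1a, Ddc, Drd2, Th, Slc18a2 and Hdc. Neighbours in this order overlapped across the 4 libraries except Ddc and Drd2, whose ranges were 1.75 to 19.4 and 0.553 to 1.61 FPKM. In control hypothalamus the order was Maob, Th, Htr2c, Maoa, Hdc, Slc18a2, Ddc, Drd2 and Htr1a, and every pair of neighbours overlapped. Without control replicate 2 Th was in place 4, below Htr2c and Maoa, and Drd2 was below Htr1a. Maob there lay above 91.1% of symbols and Htr1a above 50.4%, while in hippocampus Htr1a lay above 79.3% and Hdc above 30.1%.

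In each region 1 library stood out for several of these genes. In hypothalamus control replicate 2 Th, Slc18a2, Drd2, Ddc and Hdc were all at their highest of the 7 libraries. They were at 4.28, 2.34, 2.00, 1.57 and 2.43 times the mean of the other 3 control libraries. Hdc was nearly as high in fructose replicate 2, and Ddc in fructose replicate 1. Slc6a3, the plasma membrane dopamine transporter, was at 16.0 FPKM there and at 0.360 to 1.10 FPKM in the other 6 libraries. Nr4a2, a transcription factor required for midbrain dopamine neurons, was at 10.02 FPKM there and at 3.07 to 5.92 FPKM elsewhere. A list of midbrain dopamine neuron markers was added after these values were seen. It summed to 51.8 FPKM in that library and to 9.20 to 15.9 FPKM in the others. Of the 10 of its genes found, 9 were highest there. The list holds Slc6a3 and Nr4a2, so its sum in part repeats the values above. Maoa, Htr2c and Htr1a were within 0.885 to 1.06 times the mean of the other control libraries, and Maob was at its lowest of the 7 libraries. Which cells this RNA came from was not tested.

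In hippocampus control replicate 4 Ddc stood out together with other genes of serotonin and melatonin synthesis. Tph1, the tryptophan hydroxylase of the pineal gland and of peripheral tissues, was at 370 FPKM there, at 0 to 0.0835 FPKM in the other control libraries and at 0.0462 to 0.791 FPKM in the fructose libraries. Gch1, which makes the cofactor of the aromatic amino acid hydroxylases, was at 33.0 FPKM there and at 0.355 to 0.757 FPKM in the other hippocampus libraries. Asmt, the last enzyme of melatonin synthesis, was at 14.4 FPKM, and Crx, a transcription factor of photoreceptors and pinealocytes, at 24.3 FPKM there and at 0 in the other 7 libraries. A list of 12 pineal gland markers was added after these values were seen. It summed to 542 FPKM in that library and to 1.54 to 2.17 FPKM in the others. It holds Tph1, Asmt and Crx, so the sum in part repeats the values above. In that library 11 of the 12 were at their highest, and Otx2 was at 0 in all. Hdc was also at its highest of the hippocampus libraries there, at 0.699 FPKM, 2.78 times the mean of the other control libraries but below 1 FPKM. Th (0.814 FPKM) and Slc18a2 (0.640 FPKM) lay inside the range of the other libraries, and the neuronal tryptophan hydroxylase Tph2 was at 1.03 FPKM, inside the range of the other libraries (0.134 to 1.07 FPKM). The part of pineal RNA in the Ddc value was not tested.

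**Figure D4:**
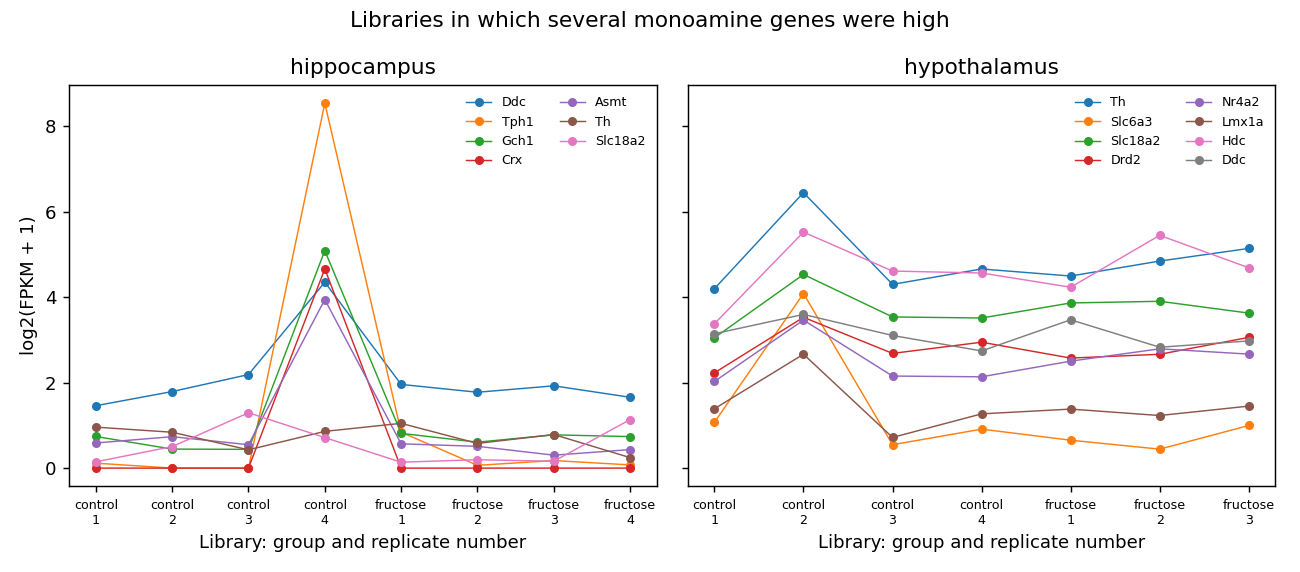
Level (log2(FPKM + 1)) of members and related genes in each library of hippocampus (left) and hypothalamus (right), with lines joining the values of a gene and no order implied among libraries. Ddc, Tph1, Gch1, Crx and Asmt are high together in hippocampus control replicate 4, and Th, Slc6a3, Slc18a2, Drd2, Nr4a2, Lmx1a, Hdc and Ddc are at their highest in hypothalamus control replicate 2.

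For each member tested, the genes whose log2(FPKM + 1) followed it most closely over the libraries of a region were named by Pearson's r, chosen as the highest among all genes tested over 8 or 7 libraries. These correlations are descriptions, with libraries, depth and the replicate 1 difference in common. In hippocampus Ddc was followed most closely by Grk1 (r = 0.984 over 8 libraries), Ctnna1 (0.980) and Alox15 (0.977), which share its single high library. Alox15 was at 146 FPKM there, against 1.10 ± 0.0950 FPKM in the other control libraries (SD, n = 3). Maoa there was followed by Zfp148 (0.982), Maob by Prkar2a (0.971), Htr2c by Aldh6a1 (0.963) and Htr1a by Trpm2 (0.970). In hypothalamus Th was followed by Chrna3 (r = 0.970 over 7 libraries), Psmc3 (0.970) and Gpr6 (0.968). Once replicate 1 was left out r was 0.981, 0.973 and 0.992. Each of these genes was highest in control replicate 2, the high library of Th, which both sets of r include. Drd2 was followed there by Fam163b (0.998), Slc18a2 by Prmt7 (0.984), Hdc by Irs1 (0.976) and Ddc by Fam84a (0.973). Each of these followers was also highest in control replicate 2, the highest library of those members. For Maoa the closest was Trip12 (0.997) and for Htr2c Itfg1 (0.997). Those members were set apart by their high replicate 1 libraries, and r was 0.991 and 0.988 without them. Maob was followed by Rarb (0.983) and Htr1a by Ramp2 (0.987).

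Beside the members, 75 further genes of monoamine biology were listed, of which 72 were in each table and 47 in hippocampus and 46 in hypothalamus were tested. None of those tested passed in either region after adjustment (limma). At an unadjusted p under 0.05 the count was 0 in hippocampus, where Gng7 had the lowest (change -0.26, with a status flag other than OK in at least 1 library), and 2 of 46 in hypothalamus (3.14% of all loci there). The median change was -0.04 in hippocampus, beside -0.0038 over all loci tested, and 0.0030 in hypothalamus, beside 0.0065. The groups did not overlap for 0 of these genes in hippocampus and for 4 of 46 in hypothalamus (3.33% of all loci there), namely Sult1a1, Drd1, Htr5a and Adra1a.

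Among the 10 other synthesis genes, 7 were tested in hippocampus and 6 in hypothalamus, and none passed. Qdpr, which regenerates the hydroxylases' cofactor, was the most abundant, at 169 ± 35.3 FPKM in control hippocampus and 208 ± 47.2 FPKM in control hypothalamus (SD, n = 4 each). Pcbd1, another enzyme of cofactor recycling, was at 14.9 ± 10.5 FPKM and 111 ± 20.1 FPKM (SD, n = 4 each), and it had the smallest p of the group in hippocampus, with a change of -0.69. Its highest hippocampus library was again control replicate 4, at 29.1 FPKM. Spr, which completes cofactor synthesis, had a change of -0.25 in hippocampus. In hypothalamus the smallest p values were those of Gchfr, the regulator of Gch1, and of Gch1 itself, with changes of -0.19 and -0.14. Dbh, the enzyme that makes noradrenaline from dopamine, did not exceed 0.367 FPKM in any library.

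Of the 8 transporters, 3 were tested in hippocampus and 4 in hypothalamus. Slc29a4, a low-affinity monoamine transporter, was the most abundant, at 9.03 ± 1.51 FPKM in hippocampus and 23.0 ± 3.70 FPKM in hypothalamus controls (SD, n = 4 each). Slc18a1, the vesicular transporter VMAT1, was at 1.34 to 3.73 FPKM in control hippocampus, above Slc18a2 in every library but low, and had a change of 0.34. In hypothalamus the dopamine transporter Slc6a3 had a change of -0.96 (adjusted p = 1, limma), with control replicate 2 its single library above 1.10 FPKM. The serotonin transporter Slc6a4 did not exceed 0.374 FPKM in any library. Slc22a2, an organic cation transporter, was at 2.73, 3.70, 7.86 and 9.98 FPKM in control and at 1.24, 0.149 and 3.39 FPKM in fructose hypothalamus. These groups overlapped, and the change of -1.52 (SE 0.53) did not pass (adjusted p = 1, limma).

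All 6 other breakdown genes were tested in both regions. Aldh2 and Akr1b1, which handle the aldehydes left by the monoamine oxidases, were at 63.4 ± 17.6 and 40.3 ± 3.49 FPKM in control hippocampus and at 67.9 ± 7.32 and 69.1 ± 2.85 FPKM in control hypothalamus (SD, n = 4 each). The change of Aldh2 was 0.23 in hypothalamus and that of Akr1b1 -0.12 in hippocampus. Sult1a1, a sulfotransferase that acts on phenols and catecholamines, was at 30.5, 27.8, 37.6 and 41.5 FPKM in control and at 19.4, 9.69 and 26.5 FPKM in fructose hypothalamus. All fructose libraries were below all control libraries, and the change was -0.94 (SE 0.32, adjusted p = 1, limma). In hippocampus its change was 0.91 (SE 0.49, adjusted p = 1, limma). Meningeal fibroblast markers moved with Sult1a1 and Slc22a2. All 11 of those tested had a negative change in hypothalamus (median -1.48) and a positive one in hippocampus (median 1.09), and their sum over 12 genes was 355 to 764 FPKM in control and 88.5 to 366 FPKM in fructose hypothalamus. Of these 12 genes Col1a2 was at 0 in every library. The part of meningeal RNA in the Sult1a1 and Slc22a2 values was not tested.

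Of the other dopamine receptors Drd1 and Drd5 were tested. Drd1 was at 3.03, 2.12, 2.53 and 1.69 FPKM in control and at 3.12, 3.50 and 3.10 FPKM in fructose hypothalamus, with no overlap and a change of 0.36 (SE 0.17, adjusted p = 1, limma). In control libraries Drd1 was at 4.76 ± 0.693 FPKM in hippocampus and 2.34 ± 0.575 FPKM in hypothalamus (SD, n = 4 each), the reverse of the order of Drd2. Drd5 was also higher in hippocampus, at 2.03 ± 0.443 FPKM against 1.21 ± 0.247 FPKM (SD, n = 4 each), and its changes with fructose were -0.28 and -0.12.

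Of the 12 other serotonin receptors 7 were tested in hippocampus and 6 in hypothalamus. Htr1b and Htr7 were the most abundant of these in hippocampus, at 8.92 ± 4.22 and 6.46 ± 1.90 FPKM in controls, and Htr7 and Htr3a in hypothalamus, at 11.2 ± 3.89 and 6.21 ± 0.419 FPKM (SD, n = 4 each). All were below Htr2c in the same region. The smallest p values in hippocampus were those of Htr7 and Htr5b, with changes of -0.28 and -0.25, and in hypothalamus those of Htr5a and Htr2a, the latter with a change of 0.30. Htr5a had 2.55 to 3.61 FPKM in control and 3.87 to 4.06 FPKM in fructose hypothalamus, with a change of 0.27 (SE 0.13, adjusted p = 1, limma).

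Of the 9 adrenergic receptors 7 and 6 were tested. Adra2c and Adra1d led in control hippocampus, at 21.3 ± 8.66 and 21.0 ± 4.94 FPKM, and Adra2a and Adra1b in control hypothalamus, at 15.2 ± 1.27 and 8.28 ± 1.36 FPKM (SD, n = 4 each). Adra1a had 2.39 to 3.79 FPKM in control and 4.22 to 4.75 FPKM in fructose hypothalamus, with a change of 0.35 (SE 0.16, adjusted p = 1, limma). In hippocampus Adra1a had a change of -0.22, and in hypothalamus Adrb1 had one of 0.13.

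Of the 4 histamine receptors Hrh3, the autoreceptor of histamine neurons, was the most abundant, at 17.7 ± 5.77 FPKM in control hippocampus and 38.1 ± 9.14 FPKM in control hypothalamus (SD, n = 4 each). Its change with fructose was -0.08 in hippocampus and 0.20 in hypothalamus. Hrh1, the postsynaptic receptor, was at 3.78 ± 0.464 FPKM and 4.80 ± 0.684 FPKM (SD, n = 4 each), with changes of 0.21 and 0.13.

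Of the 12 transcription factors that mark monoamine neurons, 9 were in both tables. Nr4a2 was the most abundant in each region, at 16.6 ± 4.66 FPKM in control hippocampus and 4.98 ± 3.36 FPKM in control hypothalamus (SD, n = 4 each), so it was higher in the region where Th was lower. Gata2 came next, at 1.57 ± 0.595 FPKM and 3.72 ± 1.40 FPKM (SD, n = 4 each). The largest fitted change among the factors named was that of Gata2 in hypothalamus, at -0.47, which did not pass, and that of Nr4a2 was 0.23 in hippocampus and 0.21 in hypothalamus. Lmx1a, which specifies midbrain dopamine neurons, had one of 0.23 in hippocampus. Of 10 genes of dopamine signalling in striatal neurons, 6 were higher in every hypothalamus control library than in every hippocampus one, as Drd2 was (34% of all symbols), and 2, Gng7 and Adcy5, were lower (17.6%). Penk, the enkephalin precursor, and Ppp1r1b, the phosphoprotein DARPP-32, led in control hypothalamus, at 198 ± 20.1 and 82.8 ± 28.3 FPKM (SD, n = 4 each). Gng7 and Adcy5, a G protein subunit and the adenylyl cyclase of striatal neurons, led in control hippocampus, at 52.0 ± 4.13 and 50.4 ± 3.90 FPKM (SD, n = 4 each). The smallest p values in hippocampus were those of Gng7 and Tac1, the latter with a change of -0.37. In hypothalamus Adcy5 had a change of 0.18.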

How the data were processed

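The FPKM values were deposited by the authors as 1 table per region, each with a status flag per locus and library. RNA was selected by poly-A, sequenced on an Illumina instrument and demultiplexed with CASAVA 1.8.2, per the labels' protocols. The tools TopHat, TopHat2, Bowtie, Bowtie2, Cufflinks and Cuffdiff and the build rn5 are named in the submitters' processing notes, with no version. Whether the tables were normalized together is not given in the sources used here.

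Columns were matched to samples by region, group and replicate number. The members and lists were chosen with earlier results of these data known, and the pineal gland and midbrain dopamine neuron lists were added after the values were seen. Symbols with several loci were taken at the locus of highest mean. Loci with a mean of at least 1 FPKM were tested on log2(FPKM + 1), a pseudocount of 1, with limma 3.58.1 in R 4.3.3 (moderated test, prior variance with a trend, Benjamini-Hochberg adjustment at 0.05), after the scripts were tested on simulated data. The regions were compared over symbols whose mean reached 1 FPKM in at least 1 of them. The tables hold no counts, so the depth behind a value is unknown and no count model was fitted.

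All 9 members were described. Of the other genes, those named were, for each role and region, the 2 of highest control mean and the 2 of smallest p, with the 3 genes most like each member, of which the text prints the first where it does not print all. Dbh, Slc6a4, Tph2 and the genes described for the single high libraries were named after their values were seen where that rule did not reach them. A few genes that the rule names are not reported here.

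For the replicate block, each library's deviation from its group mean was correlated with that of the library of the same number in the other group, which gave 0.892, 0.208, 0.481 and 0.41 in hippocampus and 0.848, 0.488 and 0.456 in hypothalamus for replicates 1 to 4 and 1 to 3. The numbers were used as a block in alternative fits only, on these data and not on a label, and the main fits hold no such term. Without replicate 1 the correlations ranged from -0.223 to 0.403, so no pairing is established beyond replicate 1.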

Additional observations from a re-analysis of the deposited data

Results flagged for a closer look

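Groups of 4 libraries were examined for a library far from the other 3. They covered members and further monoamine genes with a mean of at least 1 FPKM. The rule was a gap to the nearest library of more than 0.829 of the group's range (Dixon's 95% limit). For normally distributed values chance marks about 1 in 20 groups. Whether these FPKM values are so distributed was not tested, so that rate is only a rough guide. Of 130 groups 11 were marked, 2 of them for members.

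Th in hypothalamus control replicate 2 (86.0 FPKM) was marked, together with Slc6a3 (16.0 FPKM) and Nr4a2 (10.02 FPKM) in the same library. Ddc in hippocampus control replicate 4 (19.4 FPKM) was marked, together with Tph1 (370 FPKM) and Gch1 (33.0 FPKM) in that library. Of the remaining marks, Adra2c was high in hypothalamus control replicate 1 (7.39 FPKM), Aldh2 in hippocampus control replicate 1 (89.6 FPKM) and Slc22a2 in hippocampus fructose replicate 2 (2.85 FPKM). Spr in hippocampus fructose replicate 4 (1.77 FPKM) and Tph1 in hippocampus fructose replicate 1 (0.791 FPKM) were marked as well.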

How the results depend on the processing

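No member passed the adjusted threshold under any alternative run (pseudocount, filter, rescaling, quantile normalization, replicate block, a term for replicate 1, no trend, array weights, summed loci, or a library left out). Under array weights the smallest p values of members came with adjusted p of 0.153 for Maob in hypothalamus (change 0.50) and 0.851 for Htr2c in hippocampus (change -0.93), both limma. That setting lowered p values across all loci. In hypothalamus 2099 of 11498 loci then had an unadjusted p under 0.05 (limma), against 361 in the main fit. In hippocampus the count was 658 of 11385, against 92. Without hippocampus fructose replicate 4 Htr2c there had an unadjusted p under 0.05 (change -0.79, adjusted p = 1, limma). The replicate block changed no member's call, and with it SEs in hypothalamus ranged from 0.12 to 0.44.

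On the log2(FPKM + 1) scale, changes with fructose switched sign for these members, among them the largest, that of Ddc in hippocampus. Rescaling gave 0.01 for Maoa in hippocampus, 0.0038 for Ddc in hypothalamus and 0.04 for the difference of Htr1a between regions. The replicate block gave -0.02 for Maoa in hypothalamus, and for the difference between regions -0.02 for Maoa and 0.04 for Htr1a. Each of these equals the value without hypothalamus control replicate 4, which the block leaves unpaired. Leaving out both libraries numbered 1 gave 0.0016 for Htr1a in hippocampus and -0.09 for Slc18a2 in hypothalamus. With 1 library left out at a time, the change in hippocampus ranged from -0.09 to 0.07 for Maoa, -0.16 to 0.01 for Htr1a and -0.95 to 0.02 for Ddc. In hypothalamus it ranged from -0.31 to 0.44 for Th, -0.24 to 0.09 for Ddc, -0.06 to 0.43 for Slc18a2, -0.11 to 0.60 for Hdc, -0.06 to 0.27 for Maoa, -0.29 to 0.15 for Drd2 and -0.55 to 0.08 for Htr2c. The difference between regions ranged from -0.07 to 0.09 for Htr1a, -0.07 to 0.89 for Ddc, -0.06 to 0.27 for Maoa and -0.10 to 0.64 for Htr2c.

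The number of hypothalamus loci past the threshold was 0 when a mean of 5 FPKM was required, 2 with the replicate block, 2 without both libraries numbered 1, and 0 to 2 with 1 library left out. In hippocampus that last range was 0 to 1 (1 without control replicate 3), and for the difference between regions 0 to 1 (1 without hypothalamus control replicate 3). The cause was not tested.

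Between the regions, 6 members had control libraries that did not overlap. The count was 5 after quantile normalization, 7 without hippocampus control replicate 4 or hypothalamus control replicate 1, and 8 without both libraries numbered 1. Fewer libraries make a lack of overlap easier for any gene. The share of all symbols was taken in the main setting only (34% and 17.6%), so the higher counts do not show a clearer separation of the members. The tables hold no counts and at most 4 libraries a group, so a change within about 1 SE of 0, as for most members without the block, says little about whether fructose had an effect.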
